A study of Mus musculus with 2 samples.

Results

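The 10 calcium cycling genes of the mouse heart described here are Ryr2, Atp2a2, Pln, Slc8a1, Cacna1c, Casq2, Camk2d, Sln, Trdn and Jph2. They were taken by symbol from 55357 genes counted in both libraries. The data are unique molecular identifier (UMI) counts from droplet single-cell RNA sequencing, in which each UMI stands for 1 captured RNA molecule. One library came from Sham C57BL/6 mice, which had the operation without aortic constriction according to the labels, while the series text speaks of uninjured mice. The other came from male C57BL/6 mice that underwent transverse aortic constriction (TAC), which narrows the aorta and raises the pressure load of the heart, at 8 weeks of age and were kept for 6 weeks. Cells of 3 to 5 hearts were pooled in each library, so animals cannot be told apart and each group held 1 library. No test between the groups was therefore possible, and every interval below is a 95% interval for counting error only.

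In each heartbeat, calcium enters cardiomyocytes through the L-type channel, whose pore is encoded by Cacna1c. This calcium opens the ryanodine receptor, encoded by Ryr2, in the membrane of the sarcoplasmic reticulum. The released calcium drives contraction and is then returned to the store by the pump SERCA2, encoded by Atp2a2, or exported by the sodium-calcium exchanger, encoded by Slc8a1. Phospholamban (Pln) and sarcolipin (Sln) restrain the pump, calsequestrin (Casq2) binds calcium inside the store, triadin (Trdn) ties calsequestrin to the receptor, junctophilin (Jph2) holds the store close to the surface membrane, and the kinase CaMKII delta (Camk2d) phosphorylates several of these proteins.

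After removal of doublets, 9475 Sham and 9452 TAC cells remained, with 25943020 and 26640422 UMIs. Mitochondrial genes held 0.601% of Sham and 0.516% of TAC UMIs. Within cardiomyocytes they held 0.260% and 0.142%, and the part of this difference in the results was not tested. In the same cells the long gene Ttn was at 39084 and 24757 UMIs per 1000000 UMIs, and the myoglobin gene Mb at 224 and 260. How much of the counted RNA was nuclear was not tested, so the levels below are not read as whole-cell levels. The libraries shared 32 barcode sequences. Cardiomyocytes numbered 2512 in Sham and 2393 in TAC, with medians of 4508 and 4918 UMIs per cell. Of the genes of cardiac hypertrophy read as a check of the labels, Myh7, the beta myosin heavy chain, was at 609 UMIs per 1000000 UMIs in Sham and 827 in TAC cardiomyocytes. Other genes of that list did not follow it. The natriuretic peptide genes Nppa (15.6 in Sham and 11.7 in TAC) and Nppb (38.1 and 29.4) and the skeletal actin gene Acta1 (33.7 and 11.8) were lower in TAC, Xirp2 was at 891 and 568, Ankrd1 at 333 and 335 and Ccn2 at 5.56 and 6.86. Of 10 immediate-early genes, which respond to cell handling, 7 had at least 20 UMIs in cardiomyocytes of each library. Their TAC to Sham ratios ran from 0.708 (Jun) to 1.92 (Ier3), with a median of 1.32. The others had fewer UMIs in Sham and TAC, Fos 8 and 27, Egr1 10 and 27 and Fosb 2 and 3. The part of immediate-early genes in the results was not tested.

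By the GENCODE M21 annotation of GRCm38, all 10 genes are protein coding. The build of the deposited counts is not given in the sources used here. The longest are Cacna1c (chr6:118587240-119196418, 609 kb), Ryr2 (chr13:11553102-12106945, 554 kb), Trdn (chr10:33080554-33476709, 396 kb), Slc8a1 (chr17:81373105-81738377, 365 kb) and Camk2d (chr3:126596302-126846326, 250 kb). Jph2 (chr2:163336242-163397993), Casq2 (chr3:102086415-102146514) and Atp2a2 (chr5:122453513-122502225) span 61.8, 60.1 and 48.7 kb. The shortest are Pln (chr10:53337667-53345987, 8.32 kb) and Sln (chr9:53850164-53854560, 4.40 kb). The Pln gene overlaps Cep85l on the other strand, and Trdn overlaps 4 annotated genes on each strand. How reads of such overlaps were assigned is not given in the sources used here.

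The RefSeq promoter table for GRCm38.p6 held 7 of the 10 genes. Of these, 3 promoters are shown, for Pln and Slc8a1, which had 2 of the 3 highest TAC to Sham ratios in cardiomyocytes, and for Casq2, whose RNA was also high in pericytes. Each runs 5′ to 3′ from 250 bases before to 50 bases after the annotated start. Capitals mark matches on either strand to the TATA motif TATAAA, the E-box CANNTG, the GATA motif AGATAA, the GC box GGGCGG and the MEF2 and CArG motifs, and no matches overlapped in these 3 sequences.
Pln (chr10:53337436-53337735, plus strand): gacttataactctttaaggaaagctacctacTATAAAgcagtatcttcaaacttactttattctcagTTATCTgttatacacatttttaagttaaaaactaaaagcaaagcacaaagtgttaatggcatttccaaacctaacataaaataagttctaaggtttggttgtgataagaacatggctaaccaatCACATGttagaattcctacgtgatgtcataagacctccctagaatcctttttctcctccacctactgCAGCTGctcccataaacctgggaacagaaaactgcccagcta
Slc8a1 (chr17:81738338-81738637, minus strand): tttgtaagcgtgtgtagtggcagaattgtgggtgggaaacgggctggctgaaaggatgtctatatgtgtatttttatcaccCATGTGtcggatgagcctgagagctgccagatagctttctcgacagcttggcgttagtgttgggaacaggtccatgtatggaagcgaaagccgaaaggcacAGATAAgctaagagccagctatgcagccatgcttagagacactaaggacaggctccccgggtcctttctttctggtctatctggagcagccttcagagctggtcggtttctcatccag
Casq2 (chr3:102086165-102086464, plus strand): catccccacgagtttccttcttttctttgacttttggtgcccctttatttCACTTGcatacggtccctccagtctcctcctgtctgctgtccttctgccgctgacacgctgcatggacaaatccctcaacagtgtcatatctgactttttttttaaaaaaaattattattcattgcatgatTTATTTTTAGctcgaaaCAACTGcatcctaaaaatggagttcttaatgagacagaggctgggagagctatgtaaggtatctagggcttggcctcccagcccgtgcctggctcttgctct
The Pln sequence held 1 TATAAA, 1 AGATAA and 2 CANNTG matches. That of Slc8a1 held 1 AGATAA and 1 CANNTG match, and that of Casq2 held 1 MEF2 and 2 CANNTG matches. Among 27025 promoters of the same length, 14.2% held TATAAA, 11.4% AGATAA, 72.1% CANNTG, 35.9% GGGCGG, 3.26% MEF2 and 1.57% CArG. A match is a description of letters and not a bound site.

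In cardiomyocytes, 9 of the 10 genes were well detected, and Sln was close to absent. The 10 genes together made up 3.72% of all cardiomyocyte UMIs in Sham and 4.12% in TAC, and cardiomyocytes held 90.7% and 91.2% of all UMIs of these genes. Levels are given as UMIs of the gene per 1000000 UMIs of the cell type. The calcium release channel Ryr2 was at 13923 in Sham and 14620 in TAC. Triadin, its partner in the release complex, was at 2126 and 2890. Calsequestrin was at 461 and 496 and junctophilin at 518 and 512. These UMI levels are not scaled to gene length.

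For calcium entry, Cacna1c was at 10083 in Sham and 9502 in TAC. For calcium removal, the pump gene Atp2a2 was at 2206 and 2763, its inhibitor Pln at 1542 and 2203, and the exchanger Slc8a1 at 5686 and 7402. Camk2d was at 655 and 809. Per kb of gene span, Pln had the highest level, 185 UMIs per 1000000 per kb in Sham and 265 in TAC, followed by Atp2a2 at 45.3 and 56.7 and Ryr2 at 25.1 and 26.4. On that scale Casq2 was at 7.67 and 8.25 and Jph2 at 8.38 and 8.28, nearer to Ryr2 than on the scale without length. Camk2d was the lowest of the 9 detected genes per kb, at 2.62 and 3.24. Gene span includes introns, and the treatment of intron reads is not given, so the order per kb is a description only.

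**Figure D1:**
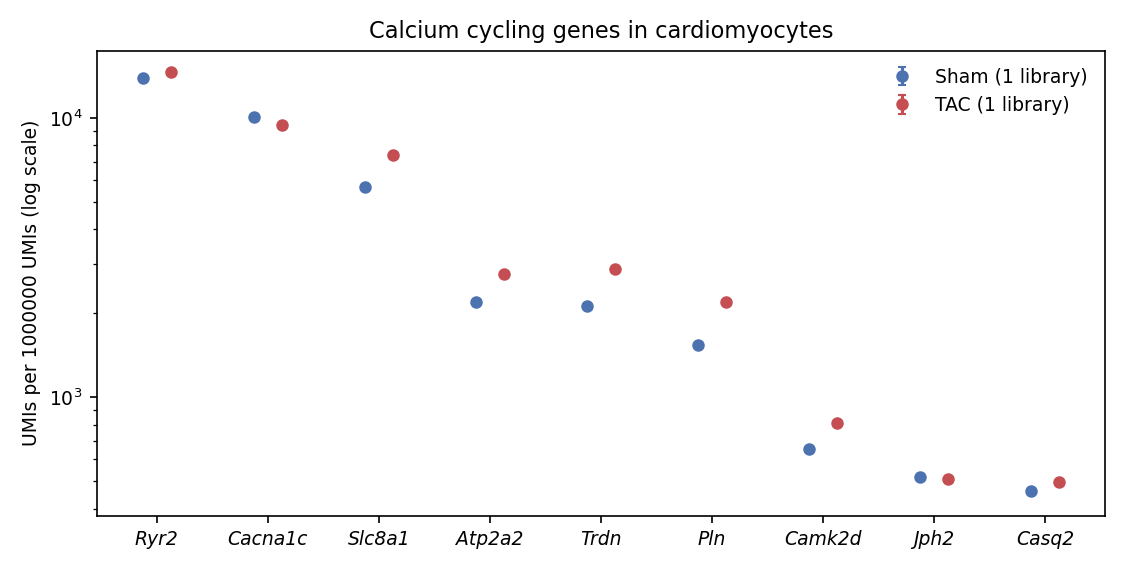
Levels of the 9 detected genes in cardiomyocytes, in UMIs per 1000000 UMIs on a log axis, for 1 Sham and 1 TAC library. Bars are 95% counting intervals, mostly smaller than the points. Ryr2 is the highest at 13923 and 14620 and Casq2 the lowest at 461 and 496.

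None of the 9 genes differed past 1.5-fold between TAC and Sham cardiomyocytes, against 17.9% of the 13294 genes with at least 20 UMIs in each library. Each of the 9 genes had more than 10000 cardiomyocyte UMIs over both libraries, and of the 316 genes at that depth, a limit chosen after seeing the data, 8.54% were past 1.5-fold, with a median ratio of 0.973. The ratio was above 1 for 7 genes and below 1 for 2, with a median of 1.24, while the median over the 13294 counted genes was 1.02 and 52.9% of them were above 1. Pln was the highest at 1.43 (95% interval 1.40 to 1.45), above 86.0% of all counted genes. Trdn was at 1.36 (1.34 to 1.38), Slc8a1 at 1.30 (1.29 to 1.31), Atp2a2 at 1.25 (1.23 to 1.27) and Camk2d at 1.24 (1.20 to 1.27). The remaining genes lay close to 1. Casq2 was at 1.08 (1.04 to 1.12), Ryr2 at 1.05 (1.04 to 1.06), Jph2 at 0.989 (0.956 to 1.02) and Cacna1c at 0.942 (0.935 to 0.950).

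**Figure D2:**
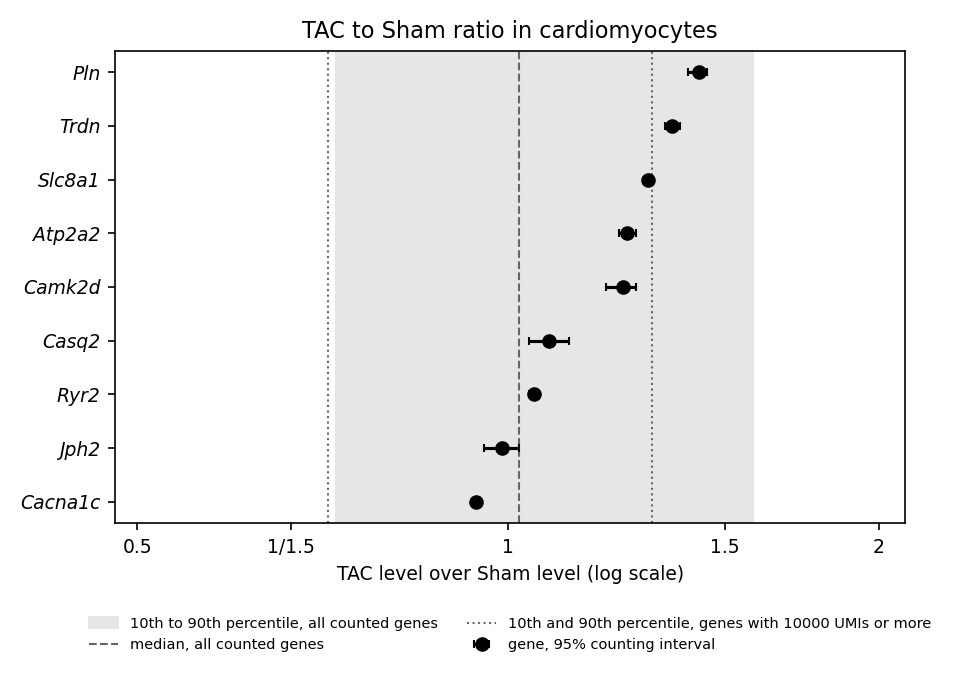
TAC level over Sham level of 9 genes in cardiomyocytes, on a log axis, with 95% counting intervals. The grey band spans the 10th to 90th percentile of all counted genes, 0.725 to 1.58, and the dashed line is their median, 1.02. Dotted lines mark the same percentiles of the 316 genes with at least 10000 UMIs, 0.714 and 1.31. All 9 genes lie inside the grey band, but Pln at 1.43 and Trdn at 1.36 lie above the upper dotted line.

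Counting intervals are narrow because these genes are abundant and UMIs were pooled over cells. They leave out the variation between cells and between mice. Each library held 2 cardiomyocyte clusters, which are subsets of the same cells and not replicates. The cluster led by Pdzrn4 held 1195 of 2512 cardiomyocytes in Sham and 516 of 2393 in TAC. In Sham, it had 6120 Slc8a1 UMIs per 1000000 and the cluster led by Slc38a3 had 5078, a ratio of 1.21. For Pln the same clusters were at 1591 and 1473. In TAC, the clusters led by Myh7 and by Pdzrn4 were at 2221 and 2152 for Pln, at 7329 and 7604 for Slc8a1 and at 2768 and 2750 for Atp2a2, which was at 2251 and 2142 in the Sham clusters. Trdn was at 2884 and 2907 in the TAC clusters and at 2143 and 2102 in the Sham clusters. The clusters of the libraries overlapped for Cacna1c, Ryr2 and Jph2. Cacna1c was at 9255 and 10185 in the TAC clusters and at 10073 and 10098 in the Sham clusters, and Ryr2 at 14261 and 15608 and at 14435 and 13205.

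Pairs of genes in the same cells do not depend on the library total. Pln UMIs per Atp2a2 UMI, the inhibitor relative to its pump, were 0.699 (0.687 to 0.711) in Sham and 0.797 (0.785 to 0.809) in TAC. Slc8a1 per Atp2a2, the exporter relative to the pump, was 2.58 (2.54 to 2.61) and 2.68 (2.65 to 2.71). Ryr2 per Atp2a2, release relative to uptake, was 6.31 (6.24 to 6.39) and 5.29 (5.23 to 5.35). Within the release complex, Trdn per Ryr2 was 0.153 (0.151 to 0.155) and 0.198 (0.196 to 0.200), whereas Casq2 per Ryr2 was 0.0331 (0.0322 to 0.0339) and 0.0339 (0.0331 to 0.0348). These ratios compare RNA counts and not proteins.

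Cell by cell, Ryr2, Cacna1c and Slc8a1, the genes with the most UMIs, had the highest variance divided by the mean. That measure grows with the mean at equal relative spread, so the order does not rank the genes by relative spread. Cardiomyocytes with at least 2000 UMIs, 2267 in Sham and 2268 in TAC, were thinned to 2000 UMIs each. The median cell then held 27 Ryr2 UMIs in Sham and 28 in TAC, with 10th and 90th percentiles of 14 and 42 in Sham. For Slc8a1 the median was 10 in Sham and 13 in TAC. The variance divided by the mean, which is 1 for pure counting, was 5.05 and 5.03 for Ryr2, 4.23 and 4.24 for Slc8a1 and 4.05 and 3.87 for Cacna1c. It was 1.49 and 1.69 for Pln and 1.25 and 1.22 for Casq2. Cells without any Pln UMI made up 9.75% in Sham and 3.79% in TAC.

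Sln, which is known as an atrial gene in the mouse, had 2 UMIs in Sham and 6 in TAC cardiomyocytes, or 0.148 and 0.458 per 1000000. The 2 Sham UMIs came from 1 cell. Over all kept cells there were 2 Sln UMIs in Sham and 13 in TAC, of which 5 were in 1 endothelial cell and 2 in macrophages. Of 7 other atrial markers, 4 were at or near 0. Bmp10 had no UMI in either library, Myl7 had 3 and 12, Mybphl 2 and 10 and Dkk3 8 and 9 UMIs in cardiomyocytes. Stard10 had 27 and 33, Myl4 62 and 112 and Nppa 210 and 154 UMIs. No comparison of Sln between the libraries was made at this depth.

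Of 61 other calcium genes, 55 had at least 20 UMIs in cardiomyocytes of each library, and their median ratio was 1.01, with 2 past 1.5-fold higher and 3 lower in TAC. All counted genes were past 1.5-fold higher in 11.7% and lower in 6.21%. Among calcium channels, Cacnb2, a subunit that carries the L-type pore to the membrane, was at 1233 in Sham and 1922 in TAC, a ratio of 1.56 (1.53 to 1.59). It was the 1 of 9 channel genes past the threshold, and the list's median was 1.19. Among 14 genes of calcium release, the 1 gene past it was Tmem38b, a channel for counter-ions of the sarcoplasmic reticulum, at 41.6 and 21.1 (0.508, 0.438 to 0.587). Among 16 kinases, phosphatases and anchors, Prkaca, a catalytic subunit of protein kinase A, was at 34.4 and 52.1 (1.51, 1.34 to 1.71), and the adenylyl cyclase gene Adcy6 was at 440 and 286 (0.650, 0.624 to 0.677). Among 7 mitochondrial calcium genes, the sodium-calcium-lithium exchanger gene Slc8b1 was at 9.86 and 6.25 (0.634, 0.476 to 0.841). None of the 3 counted uptake genes and none of the 5 counted extrusion genes was past 1.5-fold, nor was Cav3 (1.28), the 1 other T-tubule gene counted.

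Free RNA from broken cells can enter the droplets of other cells, and UMIs of cardiomyocyte genes were found in all 4 of the other large cell types. Each gene's level in another type was therefore expressed as a percent of its level in cardiomyocytes and set beside cardiomyocyte reference genes, 15 abundant ones such as Myh6 and Mb and 10 long ones such as Ttn. The reference genes themselves differed widely. In Sham endothelial cells the abundant genes ran from 7.01% (Myh6) to 70.0% (Mb), and the long genes from 3.54% (Ttn) to 8.60% (Mlip). In fibroblasts, endothelial cells, pericytes and macrophages, the medians of the long genes were 4.07%, 8.07%, 4.89% and 5.61% in Sham and 3.14%, 5.46%, 4.59% and 3.86% in TAC.

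Ryr2 and Trdn lay at the level of the long reference genes in all 4 types. Ryr2 was at 3.59% of its cardiomyocyte level in Sham fibroblasts, 7.47% in endothelial cells, 5.26% in pericytes and 5.43% in macrophages, and at 3.03%, 5.28%, 3.97% and 3.85% in TAC. Trdn ranged from 2.78% to 6.21%. After thinning to 1000 UMIs, 57.1% of Sham endothelial cells still held a Ryr2 UMI, against 99.6% of cardiomyocytes, with medians of 1105 and 4508 UMIs per cell before thinning and 814 and 35 shallower cells left out. Without thinning the shares were 68.3% and 99.7%. Ryr2 UMIs in these 4 types are therefore not read here as expression, and whether they come from free RNA was not tested. Pln was at 5.81% to 12.4% and Atp2a2 at 9.67% to 13.7%, between the medians of the long and the abundant reference genes.

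Only Camk2d and Casq2 stood above every reference gene of both lists in both libraries, in 3 of 36 pairs of gene and cell type. The share of all counted genes above this bound is not given here, so the count is a description only. Camk2d, which is known to be expressed in many tissues, was at 71.5% (66.6 to 76.7) of its cardiomyocyte level in Sham pericytes and 63.4% (59.3 to 67.7) in TAC pericytes. In fibroblasts it was at 51.0% (48.5 to 53.7) and 45.9% (43.7 to 48.2). Camk2d was about as high in endothelial cells, at 51.9% and 58.6%, and in macrophages, at 42.4% and 50.9%. The highest reference genes were at 70.0% and 60.1% in endothelial cells and at 43.5% and 39.8% in macrophages. Casq2 was at 63.9% (58.4 to 69.8) in Sham pericytes and 65.2% (60.0 to 70.9) in TAC pericytes, where the highest reference genes were at 44.8% and 39.9%. In fibroblasts Casq2 was at 4.12% and 2.80%. In pericytes its levels were 294 and 324 UMIs per 1000000.

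Against the long reference genes alone, 16 of the 36 pairs were above the highest one in both libraries. For this bound, too, the share of all counted genes is not given here. Slc8a1 was at 42.5% (41.3 to 43.7) in Sham macrophages and 35.7% (34.8 to 36.6) in TAC macrophages. The highest long reference gene there was at 8.08% and 7.40%, but the highest abundant one was at 43.5% and 39.8%, above Slc8a1. The level of Slc8a1 in macrophages was 2415 and 2644 UMIs per 1000000. After thinning, 79.6% and 81.9% of macrophages held an Slc8a1 UMI, against 35.4% and 37.1% of endothelial cells. Thinning left out 401 and 222 macrophages and 814 and 728 endothelial cells, and without it the shares were 83.6% and 87.5% against 45.3% and 46.8%. In fibroblasts Slc8a1 was at 21.9% and 16.5%. Cacna1c was at 29.7% and 26.6% in pericytes, with levels of 2993 and 2525, and at 5.36% and 3.16% in macrophages. Jph2 was at 36.7% and 38.5% in pericytes and at 5.16% and 4.26% in macrophages. Pericytes thus held Cacna1c, Casq2 and Jph2 at 26.6% to 65.2% of the cardiomyocyte level, and Ryr2 and Trdn at 3.15% to 5.26%. The highest abundant reference gene in pericytes was at 44.8% in Sham and 39.9% in TAC. Of these genes only Casq2 was above it, and Cacna1c and Jph2 lay below it in both libraries.

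**Figure D3:**
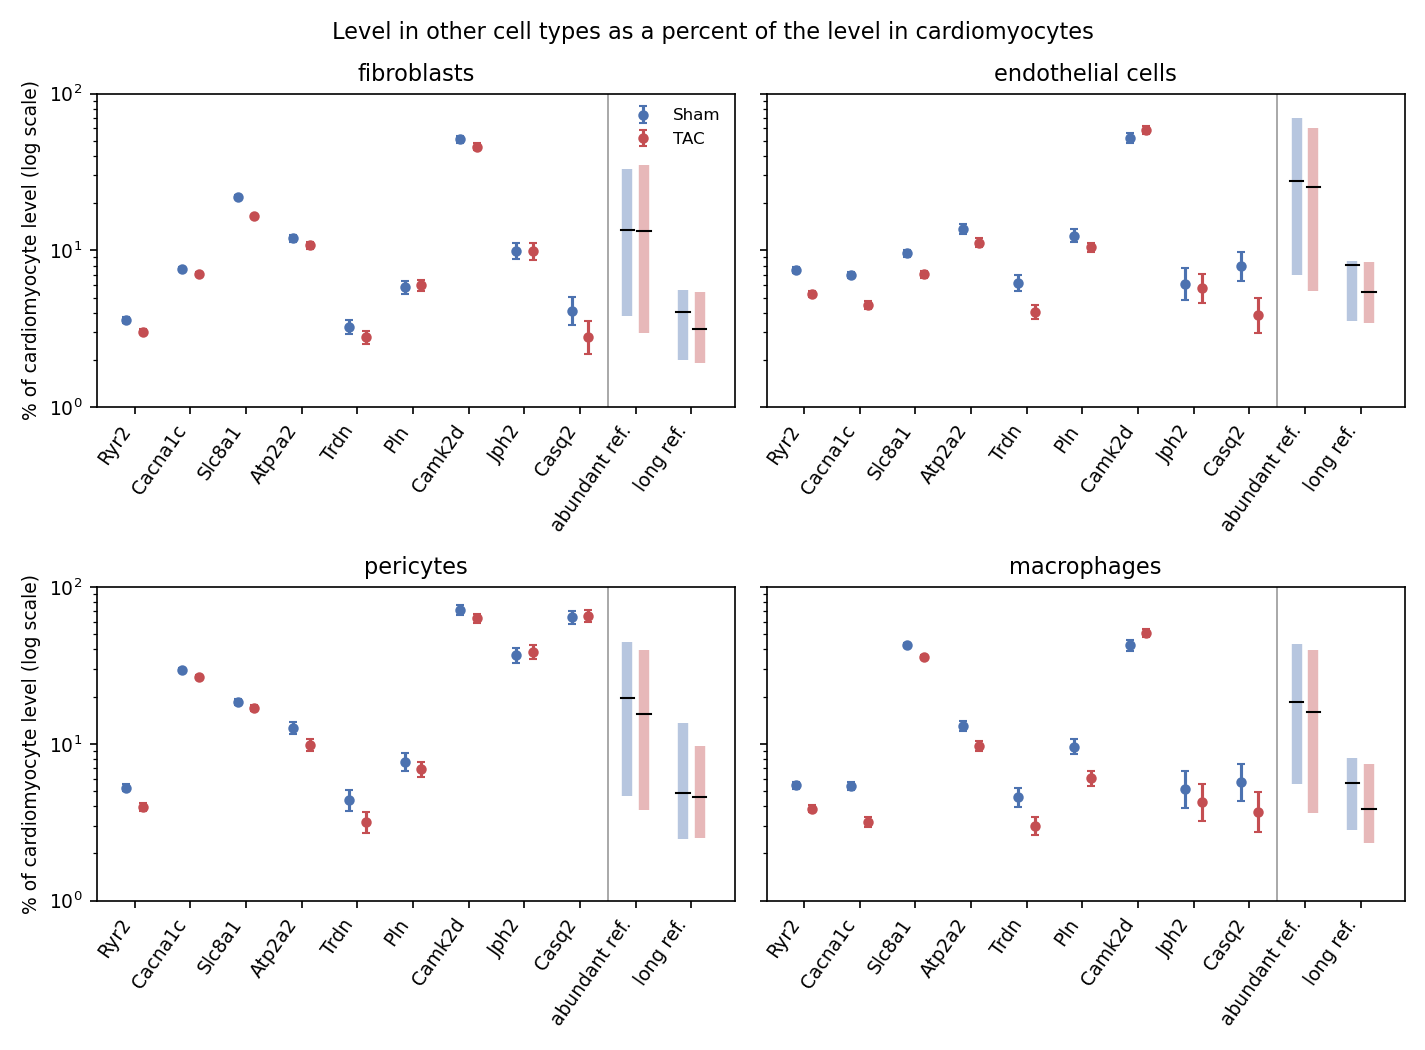
Level of 9 genes in 4 cell types as a percent of the level in cardiomyocytes, on a log axis, with 95% counting intervals, for 1 Sham and 1 TAC library. The bars on the right span the lowest to the highest of 15 abundant and 10 long reference genes, with the median as a line. Casq2 in pericytes, at 63.9% and 65.2%, and Camk2d in pericytes and fibroblasts lie above both bars.

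Smooth muscle cells numbered 50 in Sham and 43 in TAC and were added after their values were seen. Slc8a1 was at 4941 and 4611 UMIs per 1000000 and Cacna1c at 4336 and 4099. Casq2 was at 114% (88.4 to 145) and 97.1% (71.3 to 129) of its cardiomyocyte level and Jph2 at 75.8% (56.2 to 100) and 104% (77.6 to 137). Ryr2 was at 8.86% and 4.56% and Trdn at 4.06% and 1.77%. The reference genes Ctnna3 (180% and 150%) and Myom1 (117% and 89.5%) were also high in these cells, and 1 Sham cell held 75.5% of the Ttn UMIs of the type. In the clusters led by Reln, Mmrn1 and Ccl21a, of 85 Sham and 110 TAC cells, Camk2d was at 50.1% and 58.5% of its cardiomyocyte level and the other 8 detected genes at 1.58% to 10.4%. In T cells (37 and 57 cells) the 10 genes held 0.904% and 0.292% of UMIs and in B cells (35 and 35 cells) 0.430% and 0.931%. A single cell carried 51.7% of the Ryr2 UMIs of Sham T cells and 47.7% of those of TAC B cells.

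Across 24 clusters of at least 50 cells from both libraries, the genes with the most similar pattern were found for each of the 9 detected genes. The values are correlations of log2(level + 1), given as a description, and clusters of one library share their free RNA. The genes most like Ryr2 were Myh6 (r = 0.992), Rbm20 (0.990) and Pde4dip (0.986), and those most like Trdn were Fhod3 (0.988), Mhrt (0.986) and Ryr2 (0.984). Cacna1c was most like Speg (0.970), Jph2 (0.968) and Dag1 (0.963), and Casq2 most like Cacnb2 (0.943), Jph2 (0.942) and Akap6 (0.940). For Pln they were Tnnc1 (0.970), Ryr2 (0.967) and Tnni3k (0.966), and for Atp2a2 D830005E20Rik (0.978), D830024N08Rik (0.978) and Pde4dip (0.976). Jph2 was most like Cacna1c (0.968), Dag1 (0.963) and Synpo2 (0.958). Slc8a1 was most like Oxct1 (0.941), Psme4 (0.896) and Plekhm2 (0.887), and Camk2d had the lowest leading value, Sorbs2os (0.853), then Uqcrh (0.838) and Camta1 (0.822). Not all of the 9 genes were alike, and Slc8a1 and Camk2d (0.558) and Camk2d and Cacna1c (0.660) were the least alike pairs.

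Between TAC and Sham, the other cell types did not follow cardiomyocytes for every gene. No gene of the 9 was past 1.5-fold in fibroblasts or pericytes, where 13.4% and 11.9% of all counted genes were. In endothelial cells Cacna1c was at 700 in Sham and 425 in TAC (0.607, 0.565 to 0.652) and Casq2 at 36.7 and 19.2 (0.522, 0.371 to 0.730), 2 of 9 genes against 12.7% of all counted genes. In macrophages the 1 gene of 9 was Cacna1c, at 541 and 300 (0.555, 0.506 to 0.607), against 15.8%. The median ratio of the long reference genes was 0.626 in endothelial cells and 0.647 in macrophages, against 0.903 in cardiomyocytes, and the part of free RNA in these ratios was not tested. With doublets kept, the endothelial ratios were 1.31 for Cacna1c and 1.27 for Casq2, so their direction rests on the removal of doublets.

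Camk2d had a ratio above 1 in all 5 large types, but not in the few smooth muscle cells (0.974, 0.683 to 1.38). It was at 278 UMIs per 1000000 in Sham and 412 in TAC macrophages (1.48, 1.34 to 1.64) and at 340 and 474 in endothelial cells (1.40, 1.28 to 1.52). In fibroblasts it was at 334 and 372 (1.11, 1.04 to 1.19) and in pericytes at 469 and 513 (1.09, 0.998 to 1.20). Slc8a1 was at 1.09 (1.06 to 1.13) in macrophages and at 1.19 (1.12 to 1.26) in pericytes, but at 0.980 (0.947 to 1.01) in fibroblasts and 0.957 (0.890 to 1.03) in endothelial cells, where the intervals held 1.

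**Figure D4:**
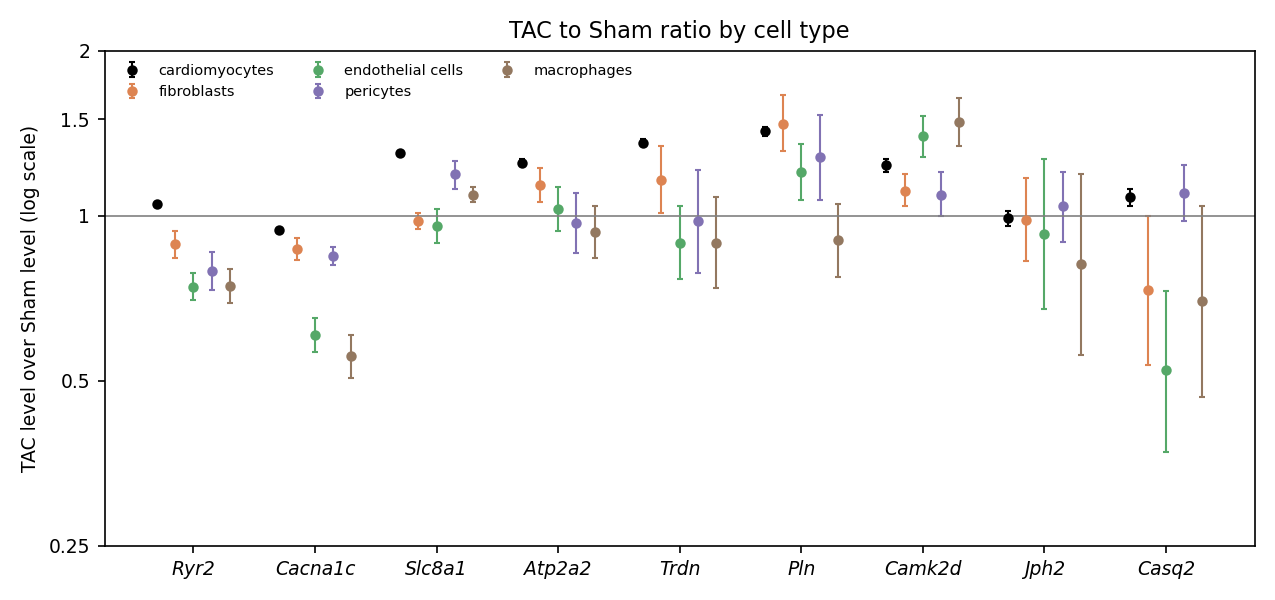
TAC level over Sham level of 9 genes in 5 cell types, on a log axis, with 95% counting intervals and 1 library per group. Camk2d lies above 1 in all 5 plotted types, and Cacna1c below 1 in all 5, at 0.942 in cardiomyocytes and 0.555 in macrophages.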

How the data were processed

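The deposited values are the authors' raw UMI counts of each gene in each barcode, made with Cell Ranger and not normalized (version 7.1.0 in the submitters' processing notes, an earlier one in the study's methods). The genome build, the treatment of intron reads and the barcode filter are not given in the sources used here. The members and gene lists were chosen with earlier results of these data known. Barcodes with fewer than 200 detected genes and Scrublet doublets (459 Sham, 479 TAC, at an expected 0.8% per 1000 cells) were removed. Each library was clustered by itself in scanpy 1.11.5 (30 components of 2000 genes, 15 neighbours, resolution 1, seed 1) without the calcium genes. Clusters took a type name when 3 or more of its markers reached 10% of the cells and 2 times the level elsewhere. They stayed unnamed where the top genes held more markers of another type, several cell-cycle genes, or no marker at low UMIs. The Sham cluster led by Reln, Mmrn1 and Ccl21a thus stayed unnamed, and the TAC one was named lymphatic endothelial cells. Both are described here by their leading genes. The rule was to name all 10 genes in types with at least 50 cells in both libraries. Smooth muscle cells (50 and 43), T cells (37 and 57) and B cells (35 and 35) fall short of it and are described outside the rule. Other calcium genes were named with at least 100 UMIs in cardiomyocytes of one library and a ratio past 1.5-fold. Levels have exact Poisson, ratios exact conditional binomial and shares exact Clopper-Pearson 95% intervals. Alternatives changed filters, doublets, resolution, naming, totals, reference genes and thinning. The ratio and interval steps were tested on simulated data.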

Additional observations from a re-analysis of the deposited data

Results flagged for a closer look

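Ryr2 and Casq2 had TAC to Sham ratios whose counting intervals lay above 1 in cardiomyocytes and, of the 4 other large cell types, below 1 in 4 for Ryr2 and 2 for Casq2. Ryr2 was at 1.05 in cardiomyocytes, against 0.887 in fibroblasts, 0.742 in endothelial cells, 0.793 in pericytes and 0.745 in macrophages, and the smooth muscle cells, 50 in Sham and 43 in TAC, were at 0.540 (0.398 to 0.726), with 27.4% of the Sham UMIs in 1 cell. Casq2 was at 1.08 in cardiomyocytes, against 0.731 in fibroblasts and 0.522 in endothelial cells, whereas its intervals held 1 in pericytes (1.10, 0.978 to 1.24) and macrophages (0.699, 0.467 to 1.04). With doublets kept, 4 of the 6 ratios with intervals below 1 in the large types turned above 1, Ryr2 to 1.62 in endothelial cells and 1.12 in pericytes and Casq2 to 1.21 in fibroblasts and 1.27 in endothelial cells, so their direction rests on the removal of doublets. The difference between cell types was not tested, since each group held 1 library. In the same types the median ratio of the long cardiomyocyte reference genes was 0.640 in fibroblasts, 0.626 in endothelial cells, 0.756 in pericytes and 0.647 in macrophages, and its part in the result was not tested.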

How the results depend on the processing

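With 1 library per group, no replicate could be left out. No paired analysis was possible because no result comes from a test and each group held 1 library. In cardiomyocytes no ratio changed direction under any alternative, and the count of 0 genes past 1.5-fold held in each of them. Pln ranged from 1.41 to 1.44, Trdn from 1.34 to 1.37, Slc8a1 from 1.28 to 1.31 and Atp2a2 from 1.23 to 1.26. With doublets kept, 5 ratios in other cell types reversed: Ryr2 was at 1.62 in endothelial cells and 1.12 in pericytes, Casq2 at 1.21 in fibroblasts and 1.27 in endothelial cells, and Cacna1c at 1.31 in endothelial cells. Pairs above the highest cardiomyocyte reference gene rose from 3 with both lists to 16 against the long reference genes alone. Chosen after seeing the data, a bound of 3 times the median long reference gene gave 10 of 36 pairs. The share of all counted genes past each of these bounds is not given here, so these counts are descriptions only. Of 270 shares of cells recomputed at other depths, 253 moved beyond their interval and 17 did not. Intervals cover counting error only, so variation between mice is not measured, and levels may include intron reads.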
